A study of Mus musculus with 16 samples.

Results

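The nicotinic acetylcholine receptor of skeletal muscle, the machinery that gathers it at the neuromuscular junction, and the genes that muscle uses when its nerve supply is lost were examined in gastrocnemius, a muscle of the calf. The set held 10 genes of the 21923 in the table and was chosen by symbol: the receptor subunit genes Chrna1, Chrnb1, Chrnd, Chrne and Chrng, the subunit gene Chrna9, the junction genes Musk and Rapsn, and the denervation-responsive genes Ncam1 and Runx1. The choice was made with earlier results of these data known, and Chrna9 was included for its level in CAC, so for these genes CAC vs. NOR is given as a description and no call is read from it. The comparisons of AM and of KD with CAC share the 4 CAC libraries with CAC vs. NOR, and those with NOR share the NOR libraries. AM vs. KD shares none.

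RNA was sequenced from 16 mice that were 6 to 8 weeks old when purchased, with 4 in each group and 1 library per mouse. Replicates 1 and 2 of every group are labelled C57BL/6 and replicates 3 and 4 BALB/c. The tumor line was LLC, from a Lewis lung carcinoma, in C57BL/6 mice and CT26, from a colon carcinoma, in BALB/c mice, so strain and tumor line cannot be told apart. NOR mice had no tumor. CAC mice carried the tumor under the skin of the flank and received PBS daily from day 9. AM mice carried the tumor and received amiloride, a diuretic that blocks sodium channels and sodium-proton exchange, at 2 mg/kg daily from day 9. KD mice carried tumor cells in which Rab27a and Rab27b, genes of exosome secretion, were knocked down by shRNA. The knock-down was in the tumor cells, so it has no read-out in the muscle. KD and NOR mice also had PBS daily from day 9. The labels give males and females for BALB/c and males for C57BL/6, the study's methods name males only, and the sex of each mouse is not given. All muscles were taken on day 30.

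The muscle receptor is a pentamer of alpha-1, beta-1 and delta subunits with either epsilon, in adult innervated muscle, or gamma, in fetal and denervated muscle. Agrin from the nerve acts through LRP4 on the receptor tyrosine kinase MuSK, and rapsyn then anchors the receptors beneath the nerve ending. When the nerve is cut, myogenin drives receptor genes along the whole fibre, and gamma subunit, MuSK, NCAM1 and RUNX1 transcripts are known to increase. The alpha-9 subunit is best known from the hair cells of the inner ear.

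Receptor genes are controlled by short sequences before the start site. Among them are the E-box (CANNTG, with CAGCTG as 1 of its forms), which binds myogenin and its relatives, and the N-box (CCGGAA), which binds ETS factors in genes expressed beneath the nerve ending. RefSeq start sites on GRCm38.p6 were matched for 7 of the 10 genes, all but Chrnd, Rapsn and Ncam1. The 150 bases before the start are printed for the 5 genes whose levels the results turn on most, 5′ to 3′ on the strand of the gene, with E-boxes and the N-box in capitals.
Chrna1: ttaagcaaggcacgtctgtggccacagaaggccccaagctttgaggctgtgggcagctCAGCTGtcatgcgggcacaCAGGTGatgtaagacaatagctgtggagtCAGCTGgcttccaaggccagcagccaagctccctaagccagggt
Chrnb1: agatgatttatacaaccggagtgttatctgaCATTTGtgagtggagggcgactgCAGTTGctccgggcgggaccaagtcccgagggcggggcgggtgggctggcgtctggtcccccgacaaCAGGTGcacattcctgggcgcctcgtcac
Chrne: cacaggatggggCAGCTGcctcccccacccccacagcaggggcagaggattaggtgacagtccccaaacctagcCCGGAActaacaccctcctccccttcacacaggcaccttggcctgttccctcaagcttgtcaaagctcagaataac
Chrna9: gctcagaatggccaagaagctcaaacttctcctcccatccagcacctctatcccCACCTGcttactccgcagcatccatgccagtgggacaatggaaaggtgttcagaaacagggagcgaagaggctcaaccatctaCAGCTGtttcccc
Musk: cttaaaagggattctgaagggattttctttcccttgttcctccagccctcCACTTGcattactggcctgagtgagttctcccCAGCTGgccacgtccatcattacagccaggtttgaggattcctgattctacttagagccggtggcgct
They lie at chr2:73580339-73580488 (minus strand), chr11:69795938-69796087 (minus), chr11:70619195-70619344 (minus), chr5:65966974-65967123 (plus) and chr4:58285812-58285961 (plus). CANNTG and CAGCTG read the same on both strands, so 1 search found every E-box, and the N-box was searched on both. Windows of this length held CANNTG in 47.7% of 32851 RefSeq promoters, CAGCTG in 8.39% and CCGGAA in 9.23%. CAGCTG occurred 2 times before Chrna1 (92 and 44 bases before the start), 1 time before Chrne (138 bases), Chrna9 (13 bases) and Musk (68 bases), and 0 times before Chrnb1, which held 3 other E-boxes. CCGGAA was found before Chrne, 76 bases from the start. Of the windows not printed, that of Chrng held CAGCTG 132 bases before the start and 1 of the 2 windows of Runx1 held CCGGAA 106 bases before it. By the GENCODE M21 annotation, 26 bases of the Chrnb1 window, 22 of the Chrne window and 2 of the Musk window lie in annotated exons, and the Chrna9 window lies inside a gene model that begins further upstream.

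In GENCODE M21 (GRCm38) all 10 genes are protein coding. Chrna1 lies at chr2:73563215-73580338 and Rapsn on the same chromosome at chr2:91035620-91045729. Chrnd (chr1:87190607-87200070) and Chrng (chr1:87204657-87212694) are neighbours on the plus strand, whereas Chrnb1 (chr11:69784036-69795943) and Chrne (chr11:70614883-70619216) share chromosome 11. Chrna9 lies at chr5:65934921-65977326, Musk at chr4:58285960-58374303, Ncam1 at chr9:49502136-49798925 and Runx1 at chr16:92601466-92826149. Exons of Ncam1 share 417 bases with Gm11149 on the opposite strand and those of Runx1 share 106 bases with Gm26626. The strand setting of the counting is not given in the sources used here, so reads from these stretches cannot be told apart.

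Between 35913190 and 61032708 reads were counted per library. Expression is given as CPM, a gene's count scaled to the size of its library, after TMM scaling, an adjustment for libraries of different composition, with the SD taken across a group's 4 mice. All 8 skeletal muscle marker genes were detected in every library, with summed levels of 60100 to 186000 CPM. Some libraries stood apart. The CAC replicate 4, AM replicates 1 and 3 and KD replicate 1 libraries shared a pattern, with 1.31 to 4.41 CPM of H2-Q2 against at most 0.0755 in the other 12, with 43.3 to 112 CPM of Nnt against 5.69 to 21.8, and with 66.4 to 117 CPM of H2-K1 against 190 to 895. It held 2 libraries of each labelled strain, so it did not follow the strain labels. The other 12 libraries likewise carried both labels. Whether the labels give the strain of each mouse was not tested, so every result by strain below is a result by label. The summed level of 10 lymphocyte genes was 1.3 to 4.45 CPM in the NOR replicate 1, CAC replicates 1 and 4 and KD replicates 2 and 3 libraries, and 40.6 to 484 CPM in the other 11. Leaving out either set of libraries was tried after these values had been seen. Only CAC replicate 4 of the shared pattern is in CAC vs. NOR, so leaving out the pattern there removes that 1 library.

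Per length, Chrnb1 and Rapsn were the most abundant of these genes in the NOR gastrocnemius. In FPKM, the authors' count per transcript length and library size, Chrnb1 stood at 15.9 ± 2.42, Rapsn at 15.1 ± 2.46, Chrne at 10.3 ± 0.88, Musk at 6.06 ± 1.02 and Chrna1 at 5.19 ± 0.657. Runx1 (3.64 ± 1.88), Ncam1 (3.13 ± 0.728), Chrnd (1.58 ± 0.361), Chrna9 (0.0925 ± 0.0699) and Chrng (0.0825 ± 0.0974) followed. Chrnb1 and Rapsn, Musk and Chrna1, Chrna1 and Runx1, Runx1 and Ncam1, and Chrna9 and Chrng were neighbours in this order whose ranges over the mice overlapped. In the CAC gastrocnemius the order of FPKM levels was Chrnb1 (34.6 ± 8.36), Rapsn (20.1 ± 2.51), Musk (12.3 ± 2.19), Chrna1 (11 ± 4.89), Chrne (6.96 ± 2.65), Chrna9 (4.71 ± 4.85), Runx1 (4.47 ± 1.72), Ncam1 (3.34 ± 0.51), Chrnd (1.56 ± 0.522) and Chrng (0.218 ± 0.235). In CAC the 6 genes from Musk to Ncam1 in this order each overlapped their neighbours. Chrne thus stood above Musk and Chrna1 in NOR and below both by mean in CAC, where its range overlapped that of Chrna1.

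**Figure D1:**
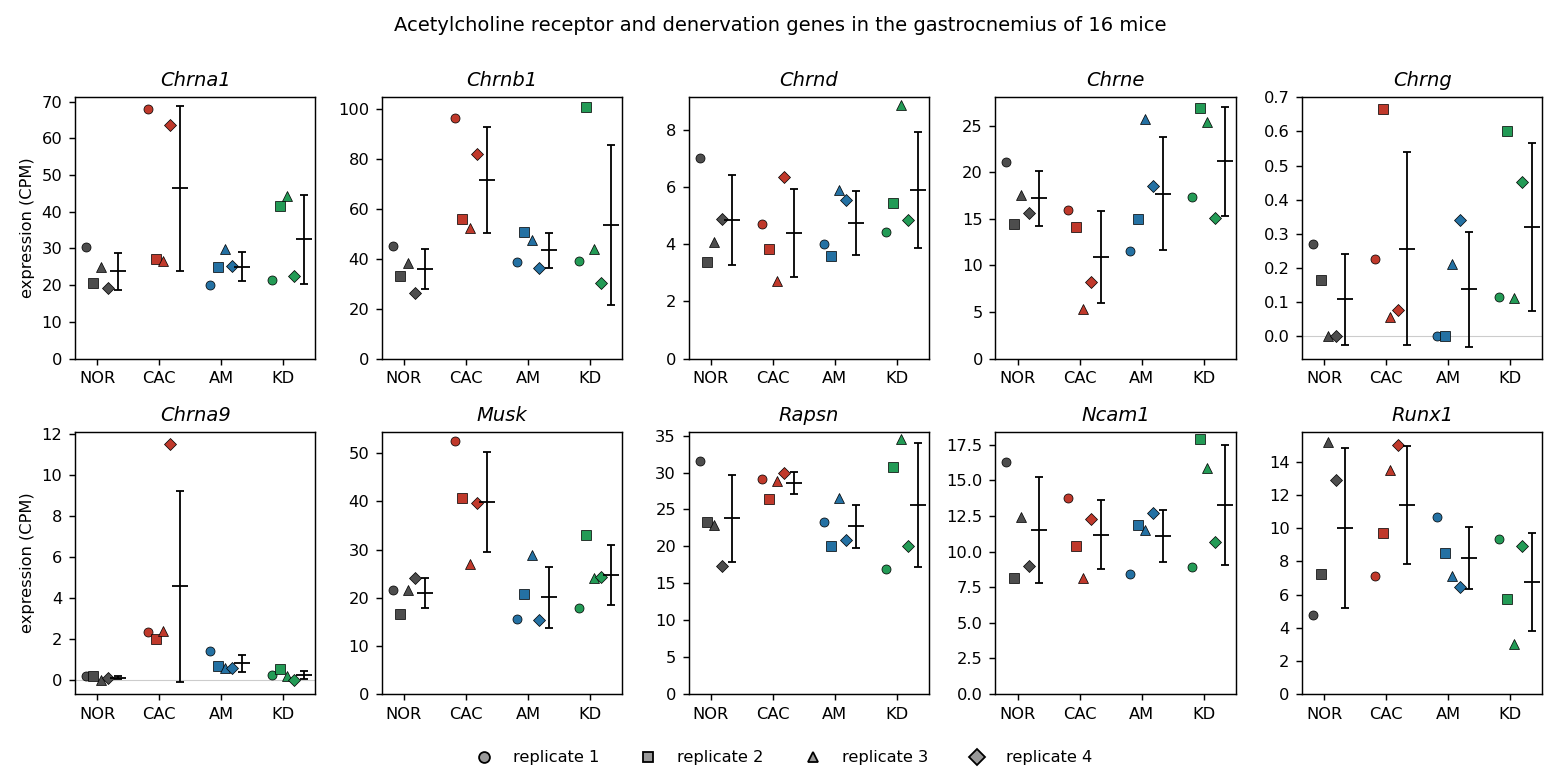
Expression of the 10 genes in CPM (vertical axes, linear, 1 panel per gene) in NOR, CAC, AM and KD mice, 4 per group. Symbols mark the replicate, and the line with bars is the mean ± SD; Chrna9 in CAC spans 2.00 to 11.5 CPM, above all 12 other mice.

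Chrna1, which encodes the alpha-1 subunit that binds acetylcholine, was higher in CAC than in NOR by mean but not in every mouse. It stood at 30.5, 20.5, 24.9 and 19.2 CPM in the 4 NOR mice and at 68.0, 27.2, 26.7 and 63.6 CPM in CAC replicates 1 to 4. CAC replicates 1 and 4 were above every other mouse of the study, while CAC replicates 2 and 3 lay within the NOR range, so the groups overlapped. The AM mice had 20.1, 25.0, 29.8 and 25.1 CPM and the KD mice 21.5, 41.7, 44.2 and 22.6 CPM, with KD replicates 2 and 3 above all NOR and AM mice. CAC vs. NOR gave a log2 fold change of 0.96 (standard error, SE, 0.343). CAC replicates 1 and 4 and KD replicates 2 and 3 were also 4 of the 5 libraries with few lymphocyte transcripts. Without those 5 libraries the log2 fold change of Chrna1 was 0.32, and the part of this difference in the result was not tested.

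Chrnb1, which encodes the beta-1 subunit, was higher in every CAC mouse than in any NOR mouse. The values were 45.2, 32.9, 38.4 and 26.4 CPM in NOR and 96.4, 55.9, 52.4 and 81.8 CPM in CAC. The groups did not overlap, and CAC replicates 1 and 4 were again the highest CAC mice. AM mice had 38.5, 50.9, 47.7 and 36.4 CPM, all below the lowest CAC mouse. KD mice had 39.2, 101, 43.8 and 30.1 CPM, 3 of them below every CAC mouse and KD replicate 2 above all of them. That library also held the highest summed level of slow fibre genes, 7090 CPM against 1100 to 5130 CPM in the others, and the part of this in the result was not tested. The log2 fold change of Chrnb1 was 1.00 (SE 0.236) in CAC vs. NOR, 0.73 without the 5 libraries low in lymphocyte genes and 0.93 without the 4 libraries of the shared pattern.

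Chrnd and Chrne, the delta and epsilon subunit genes, did not share this direction. Chrnd stood at 7.02, 3.40, 4.10 and 4.89 CPM in NOR, 4.71, 3.85, 2.70 and 6.35 in CAC, 4.03, 3.59, 5.89 and 5.54 in AM and 4.42, 5.45, 8.87 and 4.85 in KD, and the 4 groups overlapped. Chrne stood at 21.1, 14.4, 17.6 and 15.6 CPM in NOR and at 16, 14.1, 5.37 and 8.24 CPM in CAC. CAC replicates 3 and 4 were the lowest of all 16 mice for Chrne, whereas CAC replicates 1 and 2 lay at or near the NOR range. The same 2 libraries had the lowest summed levels of the 8 skeletal muscle genes, 60100 and 82500 CPM against 96900 to 186000 in the other 14, and of the 10 Schwann cell genes, 146 and 139 CPM against 208 to 517. The part of this in the level of Chrne was not tested. AM mice had 11.5, 15, 25.7 and 18.5 CPM of Chrne and KD mice 17.3, 26.9, 25.4 and 15.1 CPM. Chrne had a log2 fold change of -0.65 (SE 0.324) and Chrnd of -0.14 (SE 0.312) between NOR and CAC.

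Chrng, the fetal gamma subunit gene, was close to the limit of detection in all groups. Its counts were 10, 10, 0 and 0 in NOR, 10, 30, 3 and 5 in CAC, 0, 0, 10 and 16 in AM, and 6, 24, 6 and 25 in KD. A count of 0 allows up to 0.0506 to 0.0835 CPM in these libraries (3 counts, counting error only). The group means were 0.109 ± 0.133 CPM in NOR and 0.257 ± 0.283 in CAC, against 0.138 ± 0.168 in AM and 0.320 ± 0.246 in KD, and all groups overlapped. Chrng passed the filter on low counts in KD vs. CAC only, so it had no test in the other comparisons.

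The make-up of the receptor transcripts per length differed in CAC. The ratio of Chrna1 to Chrne in FPKM was 0.528, 0.521, 0.517 and 0.450 in the NOR mice and 1.55, 0.708, 1.81 and 2.83 in the CAC mice. It was 0.641, 0.610, 0.425 and 0.496 in AM and 0.454, 0.567, 0.636 and 0.545 in KD. Every CAC mouse was above every mouse of the other groups, with CAC replicate 2 closest to them. This ratio is given without a test because it is built from members in the CAC libraries. It pairs a member higher by mean in CAC with 1 lower by mean there. CAC replicates 3 and 4 were lowest in the summed muscle and Schwann cell genes, and CAC replicates 1 and 4 were low in lymphocyte genes. The part of this in the ratio, and in the shares that follow, was not tested.

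Of the summed FPKM of the 5 subunit genes, Chrne made up 31.3% ± 2.29 in NOR and 13.2% ± 5.40 in CAC, against 28.0% ± 5.63 in AM and 28.9% ± 4.48 in KD (SD, n = 4). Chrnb1 made up 48.0% ± 2.99, 64.0% ± 4.15, 52.6% ± 6.82 and 50.1% ± 8.97, and Chrna1 15.7% ± 0.185, 19.5% ± 4.31, 14.8% ± 0.662 and 15.9% ± 3.48, in the same order. The highest Chrne share of a CAC mouse, 20.5%, was below the lowest of the other groups, 22.3% in KD. The sum itself was 33.0 ± 3.83 FPKM in NOR and 54.3 ± 14.2 in CAC, against 39.0 ± 5.75 in AM and 44.9 ± 13.6 in KD. The gamma to epsilon ratio, Chrng over Chrne in FPKM, was at most 0.0641 in any mouse, and its mean was 0.0081 in NOR and 0.0276 in CAC, against 0.00909 in AM and 0.0212 in KD, with overlapping groups.

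**Figure D2:**
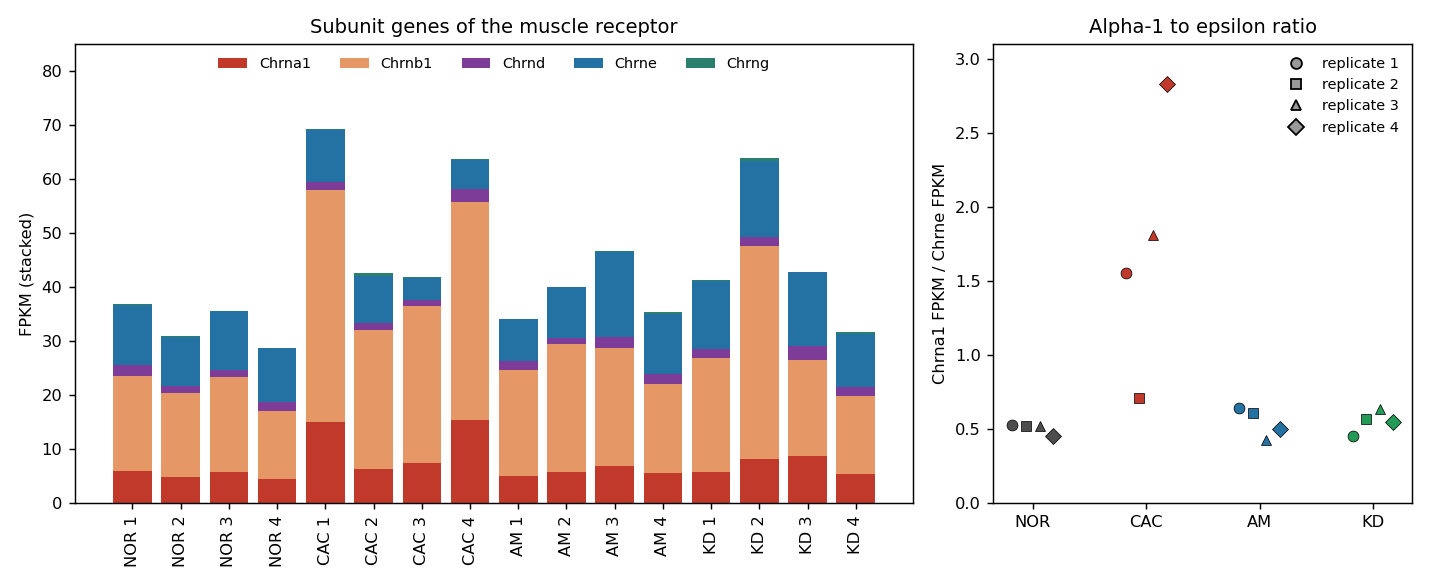
Left, FPKM of the 5 subunit genes stacked for each of the 16 mice; right, the ratio of Chrna1 to Chrne FPKM by group (linear axes, 1 symbol per mouse). The ratio spans 0.708 to 2.83 in CAC and 0.425 to 0.641 in the other 12 mice, and the Chrne segment takes the smallest share in CAC.

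Musk, the gene of the kinase that receives the agrin signal, was higher in all CAC mice than in any NOR mouse. It stood at 21.7, 16.6, 21.7 and 24.1 CPM in NOR and 52.5, 40.8, 27.0 and 39.6 CPM in CAC. The groups did not overlap, although CAC replicate 3 was close to the highest NOR mouse. AM mice had 15.5, 20.7, 28.8 and 15.4 CPM and KD mice 17.9, 33.0, 24.0 and 24.3 CPM, and in each of these groups 1 mouse was above CAC replicate 3. Musk had a log2 fold change of 0.93 (SE 0.202) in CAC vs. NOR and of 0.71 without the 5 libraries low in lymphocyte genes.

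Rapsn, whose product anchors the receptors, had overlapping levels in all groups, with the narrowest spread in CAC. The CAC mice had 29.1, 26.4, 28.8 and 29.9 CPM and the NOR mice 31.5, 23.3, 22.9 and 17.3 CPM, so that NOR replicate 1 was above all CAC mice. AM mice had 23.3, 20.0, 26.6 and 20.9 CPM, and KD mice had 16.9, 30.8, 34.6 and 20.1 CPM. CAC vs. NOR gave a log2 fold change of 0.26 (SE 0.167).

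Ncam1, the neural cell adhesion molecule that spreads along denervated fibres and is also made by Schwann and satellite cells, had overlapping levels in CAC and NOR. It stood at 16.3, 8.18, 12.4 and 8.99 CPM in NOR, 13.8, 10.4, 8.18 and 12.3 in CAC, 8.46, 11.9, 11.5 and 12.7 in AM and 8.94, 17.9, 15.9 and 10.7 in KD. The groups overlapped, with a log2 fold change of -0.04 (SE 0.252) in CAC vs. NOR. In a bulk sample, fewer cells of a type and less RNA per cell cannot be told apart. The summed level of 10 Schwann cell genes was 211 to 252 CPM in NOR and 139 to 255 CPM in CAC, and that of 6 satellite cell genes, dominated by Des, which the fibres express too, was 2840 to 3820 CPM and 5450 to 7910 CPM. The satellite cell genes did not share a direction. Des and Cdh15 were higher in every CAC mouse than in any NOR mouse, Pax7 (means of 7.00 CPM in NOR and 3.96 in CAC) and Calcr (1.14 and 0.47) were lower in every CAC mouse, and Myf5 and Vcam1 overlapped. The part of these cells in the level of Ncam1 was not tested.

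Runx1, a transcription factor of denervated muscle that blood cells use as well, also showed no separation. It stood at 4.77, 7.22, 15.2 and 12.9 CPM in NOR, 7.14, 9.73, 13.5 and 15 in CAC, 10.7, 8.49, 7.10 and 6.48 in AM and 9.38, 5.72, 3.02 and 8.90 in KD. In NOR and in CAC the mice labelled BALB/c (replicates 3 and 4) were the higher ones, and in AM and KD they were not. CAC vs. NOR gave a log2 fold change of 0.18 (SE 0.382). Runx1 ranged from 3.02 to 15 CPM (median 5.72) in the 5 libraries low in lymphocyte genes and from 6.48 to 15.2 CPM (median 9.38) in the other 11, so that the ranges overlapped. The part of blood cells in the level of Runx1 was not tested.

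**Figure D3:**
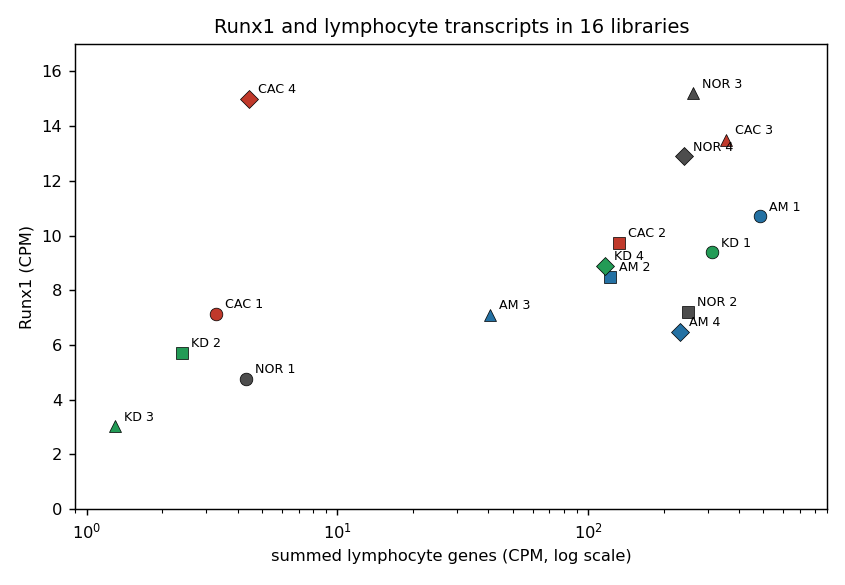
Runx1 in CPM (vertical axis, linear) against the summed CPM of 10 lymphocyte genes (horizontal axis, log scale), 1 point per library. Points to the left of 10 CPM are NOR 1, CAC 1, CAC 4, KD 2 and KD 3, whose Runx1 values run from 3.02 to 15 CPM.

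Chrna9 showed the largest difference of the set. Its counts were 6, 10, 0 and 5 in NOR, 102, 90, 124 and 734 in CAC, 63, 24, 26 and 28 in AM, and 12, 20, 10 and 0 in KD. As CPM these were 0.163, 0.165, 0 and 0.0844 in NOR, 2.31, 2.00, 2.36 and 11.5 in CAC, 1.41, 0.668, 0.553 and 0.597 in AM, and 0.229, 0.500, 0.189 and 0 in KD. Every CAC mouse was above every other mouse, every AM mouse was above every NOR and KD mouse, and the NOR and KD groups overlapped. The count of 0 allows up to 0.0601 CPM in NOR replicate 3 and 0.0543 CPM in KD replicate 4.

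The CAC mean of Chrna9, 4.55 ± 4.66 CPM, rested largely on CAC replicate 4, and the other 3 CAC mice alone gave 2.22 ± 0.195 CPM. The means were 0.103 ± 0.0783 CPM in NOR, 0.807 ± 0.405 in AM and 0.229 ± 0.206 in KD. The log2 fold change of Chrna9 was 5.45 (SE 0.962) in CAC vs. NOR and 4.41 without CAC replicate 4. It was -2.48 (SE 0.671) in AM vs. CAC, -1.46 without CAC replicate 4, and -4.33 (SE 1.09) in KD vs. CAC, -3.28 without it. These values chose Chrna9 or share their CAC libraries with those that did, and they are a description. CAC replicate 4 is both 1 of the 4 libraries of the shared pattern and 1 of the 5 low in lymphocyte genes. In NOR and CAC the summed level of 6 neutrophil genes was 3.98 to 29.6 CPM and 94.0 to 221 CPM, and in AM and KD it was 13.3 to 229 and 12 to 315 CPM. The part of such cells in the level of Chrna9 was not tested.

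Over the 16 libraries, the genes whose pattern was most like that of Chrna9 were Cdkn1a (a cell cycle inhibitor that muscle induces under stress), Mt1 and Mt2 (metallothioneins, which bind zinc and respond to glucocorticoids), Fpr1 (the formyl peptide receptor of neutrophils) and Gm10309. Likeness was the mean absolute difference of the log2 CPM of both genes after each was centred on its own mean. It was 0.884 for Cdkn1a, 0.961 for Mt1, 1.03 for Mt2, 1.07 for Fpr1 and 1.07 for Gm10309, against a median of 1.75 over 13179 genes, and the closest of the other members stood at 1.51. Mt1 had 189, 170, 251 and 1010 CPM in CAC and 17.8 to 53.7 CPM in NOR, and Cdkn1a had 75.6, 47.1, 114 and 197 CPM in CAC and 10.8 to 16.9 CPM in NOR. CAC replicate 4 was the highest library for all 5 genes. The points share their libraries, and the likeness is a description.

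Chrnb1, Musk and Chrna9 were the 3 members whose CAC values all lay above NOR, beside 12.3% of the 14666 genes tested. Between NOR and CAC the median log2 fold change was 0.26 over the 9 members that passed the count filter and 0.01 over all genes. Both values come from the comparison that was known when the members were chosen, and nothing is read from them.

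**Figure D4:**
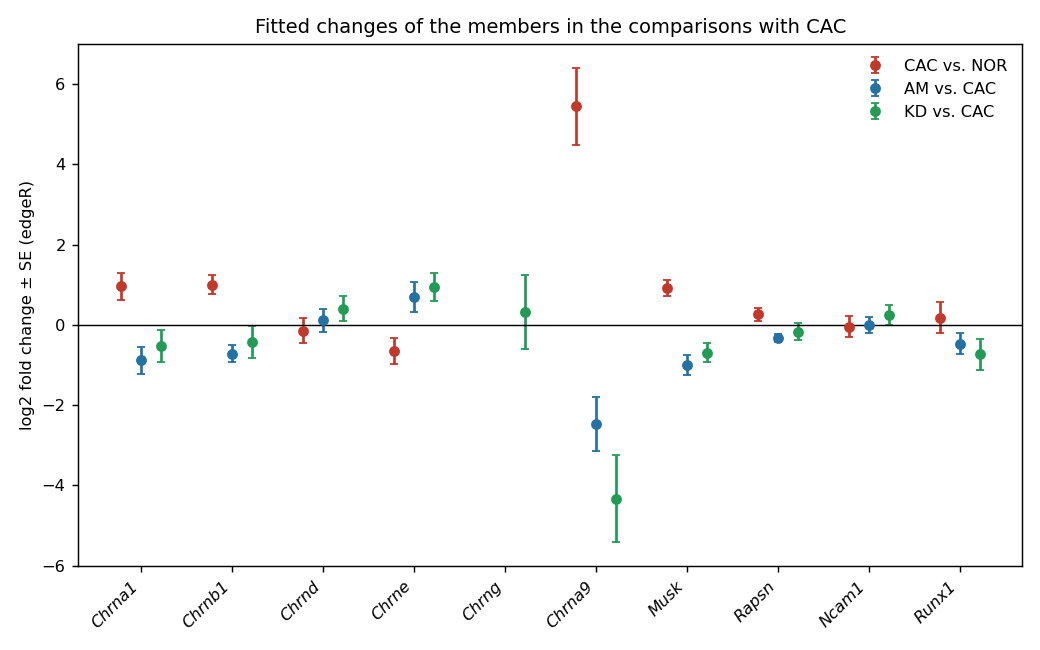
Log2 fold change ± SE from edgeR (vertical axis) of each member in CAC vs. NOR and in the comparisons of AM and of KD with CAC; Chrng is shown only in KD vs. CAC, where it passed the count filter. Chrna1, Chrnb1, Musk, Rapsn, Runx1 and Chrna9 lie above 0 in CAC vs. NOR and below 0 in both other comparisons, which share the CAC libraries, while Chrne and Chrnd lie on the opposite sides.

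AM vs. CAC asked whether treated tumor-bearing mice differed from untreated ones. A gene was called when edgeR's quasi-likelihood F test gave an adjusted p (Benjamini-Hochberg, over all genes) of 0.05 or lower and a fold change past 1.5 or 0.667. Chrnb1 was lower in every AM mouse than in any CAC mouse, with a log2 fold change of -0.72 (SE 0.207) and an adjusted p of 0.0871. Musk had -0.99 (SE 0.249, adjusted p 0.0585), Chrna1 -0.88 (SE 0.325, adjusted p 0.159) and Chrne 0.69 (SE 0.368, adjusted p 0.326). No p is given for Chrna9. Rapsn (-0.33, SE 0.105, adjusted p 0.114), Runx1 (-0.46, adjusted p 0.357), Chrnd (0.12, adjusted p 0.859) and Ncam1 (-0.0016, adjusted p 0.997) differed less in size. Of the 8 members tested other than Chrna9, 0 were called by edgeR, beside 3.66% of all genes, and 4 (Chrna1, Chrnb1, Musk and Rapsn) had an unadjusted p below 0.05, as did 3186 genes in all (21.7%). DESeq2 called Chrnb1 and Musk, beside 7.83% of all genes, and edgeR with total counts as the only scaling called Musk, beside 3.74%. Without the 5 libraries low in lymphocyte genes, which leaves 2 CAC mice, the log2 fold change of Chrna1 was -0.11 (adjusted p 0.815), and with the lymphocyte score as covariate it was -0.29 (adjusted p 0.224). Chrnb1 and Chrna9 were the 2 members whose AM values all lay below CAC, beside 9.61% of genes. The median log2 fold change was -0.46 over the 9 members tested and 0.01 over all genes.

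KD vs. CAC asked the same of mice whose tumor cells had Rab27a and Rab27b knocked down. The log2 fold changes were -0.53 for Chrna1 (SE 0.392, adjusted p 0.684), -0.42 for Chrnb1 (SE 0.389, adjusted p 0.763), -0.69 for Musk (SE 0.241, adjusted p 0.358) and 0.95 for Chrne (SE 0.359, adjusted p 0.389). Chrna1 and Chrnb1 in KD replicate 2 and Chrna1 in KD replicate 3 lay within or above the CAC range. Runx1 had -0.73 (SE 0.391, adjusted p 0.536), Chrnd 0.41, Chrng 0.32 (SE 0.921), Ncam1 0.25 and Rapsn -0.16, each with an adjusted p of at least 0.536. Of the 9 members tested other than Chrna9, edgeR and DESeq2 called 0 (DESeq2 called 2.33% of all genes), and Chrne and Musk had an unadjusted p below 0.05, as did 1627 genes in all (11.1%). Over all genes edgeR called 0.00685% in either direction, which was 1 gene. Chrna9 was the 1 member whose KD values all lay below CAC, beside 3.37% of genes.

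The AM and KD groups were also compared with NOR. By mean, KD lay between NOR and CAC for Chrna1 and Chrnb1. Their log2 fold changes were 0.46 and 0.59 in KD vs. NOR and -0.53 and -0.42 in KD vs. CAC. In AM vs. NOR the log2 fold changes of the 8 members tested other than Chrna9 ran from -0.28 (Runx1, SE 0.358) to 0.29 (Chrnb1, SE 0.172), and in KD vs. NOR from -0.56 (Runx1, SE 0.464) to 0.59 (Chrnb1, SE 0.361). In both comparisons edgeR and DESeq2 called 0 members, and 0 members had an unadjusted p below 0.05. Across all genes edgeR called 0 in either (0%), with an unadjusted p below 0.05 for 1354 and 522 genes, while DESeq2 called 70 and 31. A p above the threshold does not show that the levels are alike. Chrna9 had a log2 fold change of 2.97 (SE 0.759) in AM vs. NOR, where it was the 1 member without overlap, beside 2.13% of genes higher in all AM mice, and it was too low for the filter in KD vs. NOR. In KD vs. NOR 0 members were without overlap, beside 2.16% of genes.

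AM vs. KD shared no library with the comparison that was known when Chrna9 was chosen. All 4 AM mice were above all 4 KD mice for Chrna9, beside 0.522% of genes. AM replicate 1 was the highest of them, at 1.41 CPM, and the other AM mice stood at 0.553 to 0.668 CPM. The log2 fold change of Chrna9 was 1.83 (SE 0.933), with an unadjusted p of 0.0823 and an adjusted p of 1.00 in edgeR's quasi-likelihood F test, so it was not called. Over the 18 alternatives the log2 fold change ran from 1.41 to 2.78. Chrna9 passed the count filter here through the AM libraries, where it was higher, and failed the filter in KD vs. NOR. Nothing is therefore read from its test. For the other members the log2 fold changes ran from -0.37 (Chrna1) to 0.28 (Runx1). Here too edgeR called 0 members and 0% of all genes, 163 genes had an unadjusted p below 0.05, 0 members among them, and DESeq2 called 0 members and 1 gene in all.

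The labelled strains were compared over all 16 mice with the group in the model. Of the 10 members, 0 were called by edgeR, as were 0 of the 15220 genes in that fit. DESeq2 also called 0 members, and its share of all genes for the strain labels is not given here. The largest difference per standard error was that of Chrnb1, which was lower in the BALB/c mice with a log2 fold change of -0.36 (SE 0.215, unadjusted p 0.113, adjusted p 1.00). In the test of whether a change differed between the labelled strains, 2 mice of each strain and group were compared. Chrne was the clearest case in AM vs. CAC, with a difference between the 2 log2 fold changes of 1.87 (SE 0.383, adjusted p 0.269), and Runx1 had -1.27 (SE 0.325, adjusted p 0.318). In these fits edgeR called 0 members and 0% of genes, whereas DESeq2 called Chrne and Runx1 in AM vs. CAC, beside 3.21% of all genes. For Chrne the CAC mice had 16 and 14.1 CPM under C57BL/6 and 5.37 and 8.24 CPM under BALB/c, and the AM mice had 11.5 and 15 against 25.7 and 18.5 CPM. The 4 libraries of the shared pattern do not follow these labels, which limits what the comparison says of the strains.

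Other genes of the junction and of the response to denervation were read from lists. The lists, like the members, were chosen with earlier results of these data known, so their counts are a description and support no claim about a list. Among 14 junction genes, 13 were tested in CAC vs. NOR and 1 was downregulated, beside 5.13% of all genes. This was Ache, the acetylcholinesterase that ends the signal in the cleft. It stood at 44.0, 32.0, 44.7 and 32.5 CPM in NOR and 21.3, 24.5, 11.2 and 10.9 CPM in CAC, without overlap (as were 10.5% of genes in this direction), with a log2 fold change of -1.17 (SE 0.289, adjusted p 0.0318 in edgeR). CAC replicates 3 and 4, lowest in the summed muscle and Schwann cell genes, were also the lowest of the 16 mice for Ache, and the part of this was not tested. Ache was called in 2 of the 8 fits that left out 1 mouse. The call was lost without NOR replicates 1, 2 or 3 or CAC replicates 1, 3 or 4, each left out alone, and without either set of libraries that stood apart. AM mice had 27.8 ± 8.13 CPM of Ache and KD mice 43.0 ± 15.7 CPM, and 0 junction genes were called by edgeR in AM vs. CAC or KD vs. CAC, beside 3.66% and 0.00685% of all genes. At an unadjusted p below 0.05 stood 1 and 3 of the 13, beside 21.7% and 11.1% of all genes. DESeq2 called 0 and 1, which was Ache, higher in KD vs. CAC, beside 1.61% of genes. Agrn, Lrp4 and Dok7, the genes of the agrin signal upstream and beside MuSK, had log2 fold changes of 0.04, -0.32 and -0.28 in CAC vs. NOR, which did not pass the test.

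Among 12 denervation response genes, all tested, 3 were upregulated and 1 was downregulated in CAC vs. NOR, beside 4.32% of all genes up and 5.13% down. Myog, the gene of myogenin, had 6.72, 4.51, 5.86 and 6.58 CPM in NOR and 9.00, 14.4, 9.53 and 22.2 CPM in CAC, with a log2 fold change of 1.22 (SE 0.302, adjusted p 0.0323 in edgeR). Gadd45a, a stress gene of atrophying muscle, went from 27.4 ± 6.02 to 59.0 ± 12.4 CPM (log2 fold change 1.10, adjusted p 0.0102). Sln, which encodes the calcium pump regulator sarcolipin, went from 5.80 ± 4.38 to 37.7 ± 19.4 CPM (2.71, adjusted p 0.0218). For these 3 genes every CAC mouse was above every NOR mouse, as for 12.3% of genes. Hdac9, a deacetylase that denervation lowers, fell from 9.82 ± 2.21 to 5.55 ± 0.717 CPM (-0.82, adjusted p 0.0275), again without overlap. Myh3 and Myh8, the embryonic and perinatal myosins, had 1.3 and -0.34 and did not pass. The 4 called genes also passed without the 4 libraries of the shared pattern. Without the 5 libraries low in lymphocyte genes Sln, Myh3 and Tnfrsf12a were upregulated and Myog, Gadd45a and Hdac9 no longer passed. With 1 of the 8 mice left out at a time, Gadd45a passed in 8 fits, Sln in 4, Myog in 3 and Hdac9 in 2, and Gadd45a alone passed without NOR replicate 2 or NOR replicate 3. Hdac9 was not called with total counts as the only scaling. With all 16 libraries in 1 fit Myog and Gadd45a passed and Sln and Hdac9 did not, and with the replicate number as a block Gadd45a and Sln passed.

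The median log2 fold change was 0.04 over the 12 denervation genes, -0.17 over the 13 junction genes and 0.01 over all genes. In AM vs. CAC, Hdac9 was upregulated (10.2 ± 1.05 CPM in AM, log2 fold change 0.88, adjusted p 0.0163), and Gadd45a (23.6 ± 3.05 CPM, -1.32, adjusted p 0.00695) and Tnfrsf12a, the receptor of the atrophy cytokine TWEAK (20.2 ± 5.30 CPM in AM and 51.2 ± 12.3 in CAC, -1.34, adjusted p 0.0257), were downregulated, by edgeR, beside 1.63% of genes up and 2.03% down. DESeq2 also called Myog and Sln lower, beside 3.35% of genes that it called in this direction. With single mice left out Gadd45a passed in 8 of 8 fits, Hdac9 in 5 and Tnfrsf12a in 3. With all 16 libraries in 1 fit Gadd45a alone passed. None of these 3 calls held without the 4 libraries of the shared pattern, without the 5 low in lymphocyte genes or with the replicate block. Myog had 6.42 ± 2.49 CPM in AM and 11.1 ± 4.78 in KD. The other KD levels were 40.5 ± 17 CPM for Gadd45a, 46.4 ± 66.9 for Sln, 24 ± 22.1 for Tnfrsf12a and 8.19 ± 3.18 for Hdac9. KD replicate 2 was the highest KD mouse for Gadd45a (55.8 CPM), Sln (146 CPM) and Tnfrsf12a (56.4 CPM) and the lowest for Hdac9 (3.72 CPM). In KD vs. CAC 0 denervation genes were called by edgeR or DESeq2, and 0 had an unadjusted p below 0.05, beside 0.00685%, 2.33% and 11.1% of all genes in that order.

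**Figure D5:**
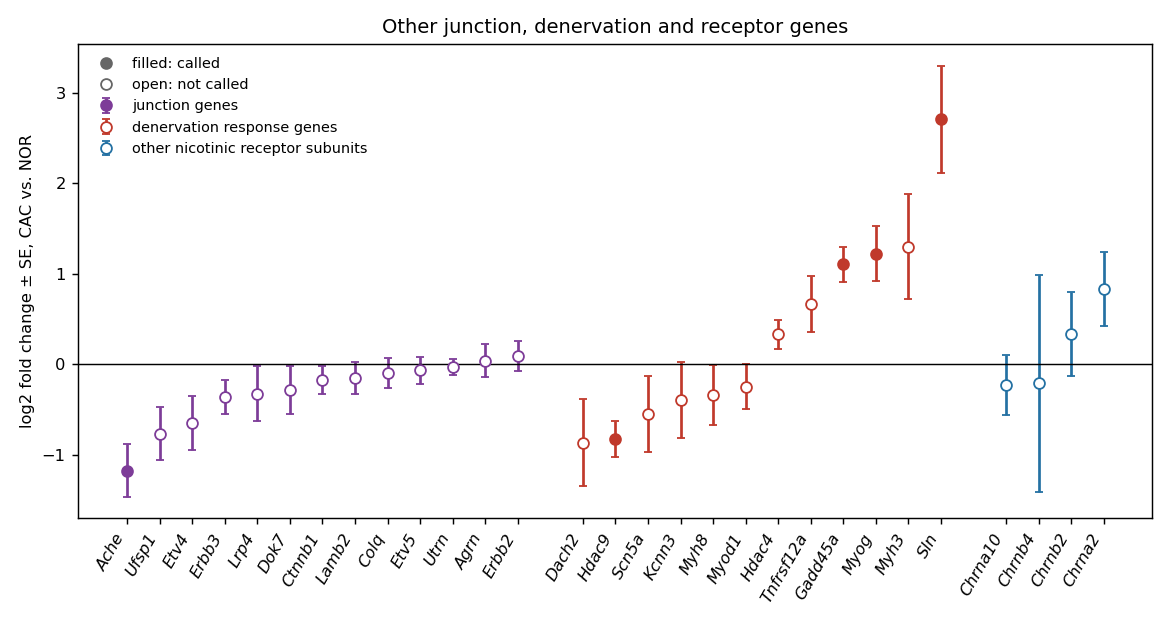
Log2 fold change ± SE in CAC vs. NOR (vertical axis) of the tested junction genes, denervation response genes and nicotinic subunit genes outside the set; filled points were called by edgeR. Ache and Hdac9 are the filled points below 0, and Gadd45a, Myog and Sln those above it.

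Of 10 nicotinic receptor subunit genes outside the set, which serve mainly neurons, 4 were expressed enough to be tested in CAC vs. NOR and 0 were called by edgeR or DESeq2 or had an unadjusted p below 0.05. Of all genes 4.32% were called up, 5.13% down and 29.1% had such a p, so 0 of 4 says little. The smallest p belonged to Chrna2, at 0.688 ± 0.277 CPM in NOR and 1.22 ± 0.43 CPM in CAC (log2 fold change 0.83, SE 0.410, adjusted p 0.222). Chrna2 stood at 2.17 ± 1.11 CPM in AM and 2.04 ± 0.801 CPM in KD, above CAC by mean. Every AM and every KD mouse was above every NOR mouse for Chrna2, with log2 fold changes of 1.66 (SE 0.454, adjusted p 0.518) and 1.59 (SE 0.435, adjusted p 0.999) against NOR, which were not called. Of all genes 2.13% were higher in every AM mouse than in any NOR mouse. In KD vs. NOR 2.16% were without overlap in either direction. Chrna9, in contrast, stood below CAC in every AM and KD mouse. Chrna10, the usual partner of Chrna9 in hair cells, had a log2 fold change of -0.23 (SE 0.331, adjusted p 0.718), with means of 7.84 CPM in NOR and 6.70 CPM in CAC. Without CAC replicate 4 Chrna10 was called lower (-0.68, SE 0.174, adjusted p 0.0456), so that library decided the call.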

How the data were processed

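The study sequenced oligo(dT)-enriched gastrocnemius RNA of 16 mice on an Illumina HiSeq2500. The authors deposited raw read counts per gene and, beside them, FPKM values. The submitters' processing notes name fastp, Bowtie2, HISAT2, StringTie 1.3.1 and the builds mm9 and GRCm38. The counting tool and strand setting are not given in the sources used here. Column names identified each mouse, with AM written as T. Library totals were 35913190 to 61032708 counts. Over 24 pairs of same-group libraries the chi-square per df was never under 66.6, so none was a copy of another. The labels name separate mice but no litters or cages, so p-values measure the spread between these mice. Floors for a count of 0 cover counting error only.

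Each comparison used the 8 libraries of its groups in edgeR 4.0.16 under R 4.3.3 (TMM, filterByExpr at min.count 10 and min.total.count 15, quasi-likelihood F test). A gene was called when its Benjamini-Hochberg FDR was 0.05 or lower over all genes and its fold change reached 1.5 or 0.667. The NOISeq package that the study used was not installed. SE is the size of the log2 fold change over the square root of F. FPKM served for levels, ratios and shares between genes, also side by side across groups, and for no test. The fits were tested on simulated data. Alternatives were RLE and total-count scaling, DESeq2 1.42.0, no filter, strain or replicate number as covariate, 1 fit of all 16 libraries, no fold change limit and each library left out. A lymphocyte score as covariate and leaving out the libraries that stood apart were added after the data were seen. Members and lists were chosen with earlier results of these data known. All 10 members are named, as is every gene of the junction, denervation response and other nicotinic lists that was called in CAC vs. NOR (with none, the smallest p), and the 5 genes of at least 1 CPM most like Chrna9 (log2 CPM, prior count 2). Agrn, Lrp4, Dok7, Myh3, Myh8, Chrna10 and Tnfrsf12a were named outside this rule, after values were seen. Positions are from GENCODE M21, which matched 21905 of 21923 identifiers, and promoters from RefSeq (GRCm38.p6).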

Additional observations from a re-analysis of the deposited data

Results flagged for a closer look

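Of the 40 sets of 4 mice examined, 10 genes in each of 4 groups, 2 held a sample far from the other 3. For Chrna9 in CAC, replicate 4 stood at 11.5 CPM, and its gap to the nearest of the others took up 0.962 of the range of the group, above Dixon's critical value for 4 samples. For Chrna9 in AM, replicate 1 stood at 1.41 CPM, with a gap of 0.865 of the range. Chance marks about 1 in 20 such groups. Both libraries belong to the 4 that shared the pattern in H2-Q2, Nnt and H2-K1, and the part of that pattern in the level of Chrna9 was not tested.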

How the results depend on the processing

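Members were chosen with CAC vs. NOR known, so the number called there supports nothing and is given only to show how it moves. With all settings as chosen, 2 of the 8 members tested other than Chrna9 were called, both up. Of all genes 4.32% were called up and 5.13% down. The number of members called ran from 0 to 3 when single mice were left out. It was 1 with all 16 libraries in 1 fit, 1 without the 4 libraries of the shared pattern and 0 without the 5 low in lymphocyte genes. In AM vs. CAC the count of 0 became 1 with total counts as the only scaling and 2 with DESeq2, and the count of members whose change differed between labelled strains there became 2 with DESeq2. DESeq2 and total-count scaling gave 3 in CAC vs. NOR, with Chrna1 as the third. In KD vs. CAC and in the 3 comparisons without CAC the count was 0 under every alternative run. Over all genes, calls ran from 398 to 2048 against 1386 in CAC vs. NOR, from 0 to 1120 against 537 in AM vs. CAC and from 0 to 332 against 1 in KD vs. CAC. The direction reversed for differences near 0. In CAC vs. NOR, over all alternatives, Chrnd ran from -0.38 to 0.091, Ncam1 from -0.20 to 0.18 and Runx1 from -0.050 to 0.45. Ncam1 in AM vs. CAC ran from -0.13 to 0.11 when single mice were left out, and had 0.0098 with RLE, 0.0099 with DESeq2, 0.0096 with the replicate block, 0.22 with the lymphocyte score, 0.19 without the 4 libraries and 0.26 without the 5. Chrnd in AM vs. CAC ran from -0.060 to 0.35, and Chrng in KD vs. CAC from -0.17 to 1.40, when single mice were left out, and Chrng had -0.34 without the 5 libraries. Rapsn in KD vs. CAC had 0.020 without the 4 libraries. The cause was not tested. With total counts only, the median of all genes moved to 0.14 in CAC vs. NOR and -0.11 in KD vs. CAC. The gamma to epsilon ratio from CPM was 0.00608 (NOR), 0.0204 (CAC), 0.00667 (AM) and 0.0158 (KD).

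The replicate numbers did not pair the mice. The correlation of the deviations of same-numbered mice ran from -0.636 to 0.601, over 0.1 in 6 of 24 pairs, and with the replicate block 2 members were called in CAC vs. NOR (1140 genes in all) and 0 in AM vs. CAC (0 genes in all). With 4 mice in a group depth limited mainly Chrng, whose counts were low in all groups, and Chrna9, whose counts were low outside CAC.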
